A study of Mus musculus with 4 samples.

Results

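Integrins are the cell surface receptors that hold cells to the extracellular matrix, and laminins are the main matrix proteins they bind in basement membranes. Their genes were read here in brains of mouse embryos at embryonic day 15. Members were taken by symbol from the protein-coding genes: the integrin α and β subunit genes (Itga and Itgb followed by their number or letter) and the laminin chain genes (Lama, Lamb and Lamc). This gave 33 genes of 20421 in the table, 22 of integrin subunits and 11 of laminin chains. The symbol pattern itself used no measured value, but it was chosen with earlier results of these data known. A mean of at least 1 CPM (reads scaled to a common library total) over both libraries was reached by 26 members, among 14557 genes in all.

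The study sequenced RNA of E15 brains with the genotypes WT and FOXM1f/+;Nestin-Cre, all of strain C57BL/6, to ask what the human FOXM1 gene changes in the developing mouse brain. FOXM1 is a forkhead transcription factor of dividing cells, and the Nestin promoter drives Cre recombinase in neural progenitors, so other cells of the brain, such as those of vessels and meninges, are not its usual target. GEO lists 4 samples, 2 per genotype, but the deposited table holds 1 column of reads per genotype, with no replicates. The titles of the WT samples name nestin in one and foxm1 in the other, and whether such an animal carries one allele of the cross is not stated. The name of the column does not say which sample it is. Below, the FOXM1f/+;Nestin-Cre column is called the transgenic library.

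The libraries held 17856653 (transgenic) and 17543705 (WT) reads. Each ratio below is transgenic CPM over WT CPM, followed by its exact conditional 95% interval, which covers counting error only. No difference has a replicate check, and the spread between embryos is not measured. The mouse Foxm1 gene had 1289 and 1139 reads (72.2 and 64.9 CPM, transgenic and WT), which says nothing of a human transgene. The libraries came from embryos that differed in sex-linked RNA: Xist had 9628 and 5 reads, and 4 Y-linked genes had 0 reads in the transgenic library and 202 to 1266 in the WT library. Marker genes of choroid plexus epithelium summed to 12.8 CPM (transgenic) and 707 CPM (WT), and those of meninges and fibroblasts to 23.5 and 42.6 CPM. Radial glia markers summed to 2192 and 1792 CPM and neuron markers to 6222 and 6702 CPM. Erythroid markers were 4.07-fold higher in sum in the transgenic library (3.79 to 4.37), with 4 of 5 above. Most of that sum was Hbb-y, with 3194 of the 3920 transgenic and 499 of the 947 WT reads. The marker not above, Alas2, had 257 and 275 reads, a ratio of 0.918 (0.772 to 1.09). In whole tissue, fewer cells of a type and less RNA per cell cannot be told apart. What part sex or these cell types had in the results below was not tested.

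An integrin is a pair of one α and one β subunit, and the α subunit largely sets the ligand. A laminin is a trimer of one α, one β and one γ chain that polymerises into a sheet. In the embryonic cortex, radial glia anchor their end feet through integrins and dystroglycan to the laminin-rich basement membrane under the meninges, and vessels carry a basement membrane of their own.

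The laminin receptor genes and the laminin chains they meet were all present in both libraries, and the largest difference among members with at least 10 CPM was at Lama1, 1.66-fold higher in the transgenic library. Of the 26 members, 2 were at least 1.5-fold higher in the transgenic library (Lama1 and Lamc3), where 2.53% of all genes tested were. At least 1.5-fold lower were 2 members (Itga2b and Lama2), where 5.23% of all genes were. The interval lay above 1 for 5 members (Itgb1, Itga6, Itga5, Lama1 and Lamb2) against 16.5% of all genes, and below 1 for 3 members (Itga3, Itga2b and Lama5) against 19.2% of all genes. In the other 18 the interval spanned 1. The authors' deposited table marks Lama1 and Lamc3 as up, where it marks 1.96% of these genes, and Itga2b as down, where it marks 4.31%. It also marks Itga11 and Itgal as down, both under the minimum of 1 CPM. With so few members, 1 gene more or less shifts each of these shares by several percentage points, and an interval excludes 1 more easily where a gene has many reads. The counts are given as a description.

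The members showed no common direction. Summed over all 33, they had 7692 transgenic and 7260 WT reads, a ratio of 1.04 (1.01 to 1.08). Of the 26 that passed the minimum, the ratio was above 1 in 10 and below 1 in 16, and the median log2 ratio was -0.07, beside -0.01 over all genes tested. Integrin subunits had a median of -0.09 (15 members) and laminin chains of -0.03 (11 members). Over the 6 integrin subunits with a mean of at least 10 CPM the median was 0.14, so its sign turned with the expression minimum. Of the 26 members, 22 lay between the 5th percentile (-0.60) and the 95th percentile (0.43) of all genes.

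**Figure D1:**
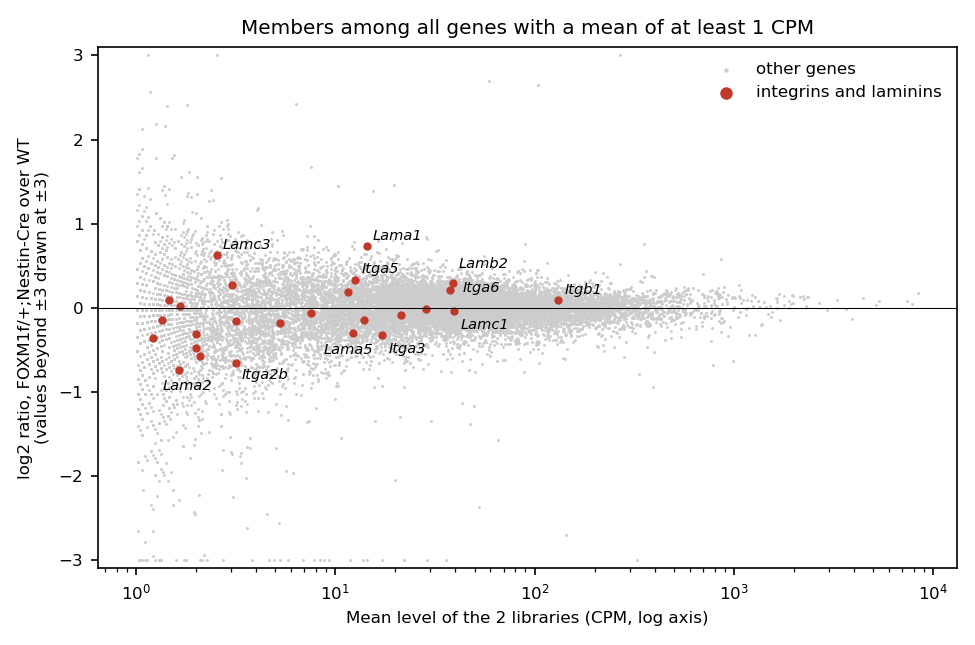
Each point is a gene that passed the minimum of 1 CPM, with the mean level of the 2 libraries (CPM, log axis) across and the log2 ratio of the FOXM1f/+;Nestin-Cre over the WT library upward. The 26 integrin and laminin genes (red) lie on both sides of 0, with Lama1 at 0.73 and Lama2 at -0.74 as their extremes.

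Among the integrin β subunits, Itgb1 was the most abundant member in both libraries. Itgb1 (ENSMUSG00000025809, chr8:128685654-128733200, plus strand, GRCm38) encodes β1, the partner of most laminin, collagen and fibronectin receptors. It had 2425 transgenic reads (136 CPM) and 2238 WT reads (128 CPM), a ratio of 1.06 (1.005 to 1.128). The lower bound of this small difference all but touched 1. Divided by exon length, Itgb1 stood at 33.3 and 31.3 CPM per kb, above every other member in both libraries. Itgb8 encodes β8, which pairs with αv and activates latent TGF-β. Its 369 and 386 reads (20.7 and 22.0 CPM, transgenic and WT) gave a ratio of 0.939 (0.812 to 1.09), so the libraries were not told apart. Itgb4 encodes β4, the partner of α6 in hemidesmosomes. It was low, with 30 and 44 reads (1.68 and 2.51 CPM), and its ratio of 0.670 (0.407 to 1.09) spanned 1. Itgb3, the β subunit of the platelet fibrinogen receptor and of a vitronectin receptor, had 18 and 8 reads and stayed under a mean of 1 CPM. Its ratio of 2.21 (0.915 to 5.88) spanned 1.

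The α subunits that bind laminin differed in opposite directions. Itga6 (ENSMUSG00000027111, chr2:71745616-71858416, plus strand) encodes α6, a receptor for laminin on neural progenitors. It had 723 transgenic reads (40.5 CPM) and 614 WT reads (35.0 CPM), a ratio of 1.16 (1.04 to 1.29). Itga3 (ENSMUSG00000001507, chr11:95044474-95076801, minus strand) encodes α3, a laminin receptor known for its part in the migration of cortical neurons. It was lower in the transgenic library, with 274 reads (15.3 CPM) against 336 (19.1 CPM), 1.25-fold lower (1.06 to 1.47). Itga7, whose α7 is the laminin receptor of muscle, had 30 and 41 reads (1.68 and 2.34 CPM) and a ratio of 0.719 (0.433 to 1.18). The opposite differences at Itga6 and Itga3 nearly cancelled in the group, which had 1027 and 991 reads in all, a ratio of 1.02 (0.932 to 1.11).

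The balance within these receptors therefore differed between the libraries. Itga6 took 70.4% (67.5 to 73.2, exact Clopper-Pearson 95% interval) of the laminin-binding α reads in the transgenic library, and 62.0% (58.9 to 65.0) of the WT ones. Itga3 took 26.7% (24.0 to 29.5) and 33.9% (31.0 to 36.9), and these intervals did not overlap. Itga6 and Itga3 held nearly all reads of the group, so their shares and the ratio of their reads describe the same difference. The number of Itga6 reads per Itga3 read was 2.64 in the transgenic and 1.83 in the WT library, a 1.44-fold difference (1.19 to 1.76). This was 1 of 8 such ratios, each between the 2 most abundant genes of a role. Of the 8, 4 had an interval off 1, the other 3 being those of laminin α, β and γ chains given below. What share of other gene pairs has an interval off 1 was not counted, so this count is a description only. Of single genes, 16.5% lay above 1 and 19.2% below. Per union exon length the share of Itga6 was 60.8% and 51.6%, with Itga6 at 4.49 and 3.88 CPM per kb, or 9.39 and 8.12 by its longest transcript. Between the same libraries, radial glia markers were 1.22-fold higher in sum (1.21 to 1.24), and neuron markers had a ratio of 0.928 (0.921 to 0.936), with 5 of 8 radial glia markers above and 6 of 6 neuron markers below. Their part in the balance of Itga6 and Itga3 was not tested.

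**Figure D2:**
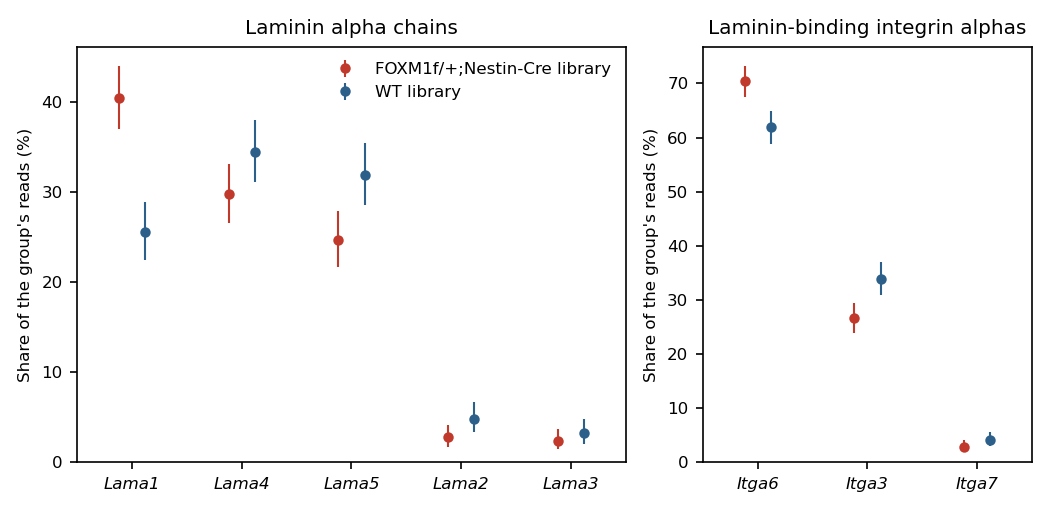
Share of the reads of each group (percent, from 0) held by each laminin α chain gene (left) and each laminin-binding integrin α gene (right) in the 2 libraries. Bars are exact 95% intervals for counting error. Lama1 (40.4% against 25.6%) and Itga6 (70.4% against 62.0%) held more in the transgenic library, Lama5 and Itga3 less.

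Of the 4 collagen-binding α subunits, the 3 that passed the minimum had intervals that spanned 1. Itga1 encodes α1, the receptor for basement membrane collagen, with 132 and 135 reads (7.39 and 7.69 CPM) and a ratio of 0.961 (0.750 to 1.23). Itga10, of the cartilage collagen receptor α10, had 88 and 98 reads (4.93 and 5.58 CPM) and a ratio of 0.882 (0.654 to 1.19). Another gene on the same strand covers 33.5% of its exon bases, so its reads may not be all its own. Itga2, of the fibrillar collagen receptor α2, had 32 and 39 reads (1.79 and 2.22 CPM) and a ratio of 0.806 (0.489 to 1.32). Itga11 encodes α11, the collagen receptor of fibroblasts. Its 10 transgenic against 24 WT reads made it 2.44-fold lower (1.13 to 5.72), under a mean of 1 CPM. Markers of meninges and fibroblasts were 1.81-fold lower in sum in the transgenic library (1.61 to 2.05), with 6 of 8 genes below, 1 above and none at 0 reads in either library, and their part in the Itga11 reads was not tested. The group as a whole had 262 and 296 reads, a ratio of 0.870 (0.734 to 1.03).

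Of the α subunits that bind RGD ligands such as fibronectin, one was higher and one lower in the transgenic library. Itga5 (ENSMUSG00000000555, chr15:103344286-103366763, minus strand) encodes α5, the main fibronectin receptor. It had 250 reads (14.0 CPM) against 195 (11.1 CPM), a ratio of 1.26 (1.04 to 1.53). Itgav, whose αv pairs with several β subunits, β8 among them, had 220 and 190 reads (12.3 and 10.8 CPM) and a ratio of 1.14 (0.933 to 1.39). Itga8, of the nephronectin receptor α8, had 30 and 29 reads and a ratio of 1.02 (0.589 to 1.75). Itga2b (chr11:102453297-102470122, minus strand) encodes αIIb, the platelet fibrinogen receptor. Its 44 transgenic reads (2.46 CPM) against 68 WT reads (3.88 CPM) made it 1.57-fold lower (1.06 to 2.35). Itgb3, of the β subunit of the same receptor, had 18 and 8 reads, a ratio of 2.21 (0.915 to 5.88). The platelet markers Pf4, Ppbp, Gp9 and Treml1 together had 18 and 11 reads in the same libraries, none of them more than 7. The fifth marker, Gp1bb, had 334 and 534 reads, but shares 92.9% of its exon bases with other genes on its strand. With Gp1bb, the 5 markers had a ratio of 0.635 in sum (0.553 to 0.727). What part platelets had in the Itga2b reads was not tested.

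The remaining integrin subunits were low. Itga9, of the tenascin receptor α9, had 54 and 59 reads (3.02 and 3.36 CPM), a ratio of 0.899 (0.610 to 1.32). Itga4, of the VCAM-1 and fibronectin receptor α4, had 59 and 48 reads (3.30 and 2.74 CPM), a ratio of 1.21 (0.811 to 1.81). The 5 leukocyte subunits were all under a mean of 1 CPM. Itgae had 13 and 20 reads, Itgb2 had 8 and 17, Itgal had 6 and 16 (2.71-fold lower, 1.01 to 8.47), Itgb7 had 6 and 5, and Itgax had 1 and 5, transgenic and WT in each case. Together they had 34 and 63 reads, a ratio of 0.530 (0.339 to 0.817). These are subunits of receptors on white blood cells, and microglia markers were 1.26-fold lower in sum in the transgenic library (1.14 to 1.39), with 4 of 8 below, none above and none at 0 reads. Their part in the leukocyte subunits was not tested, nor was that of blood, of whose 5 erythroid markers 4 were higher in the transgenic library.

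**Figure D3:**
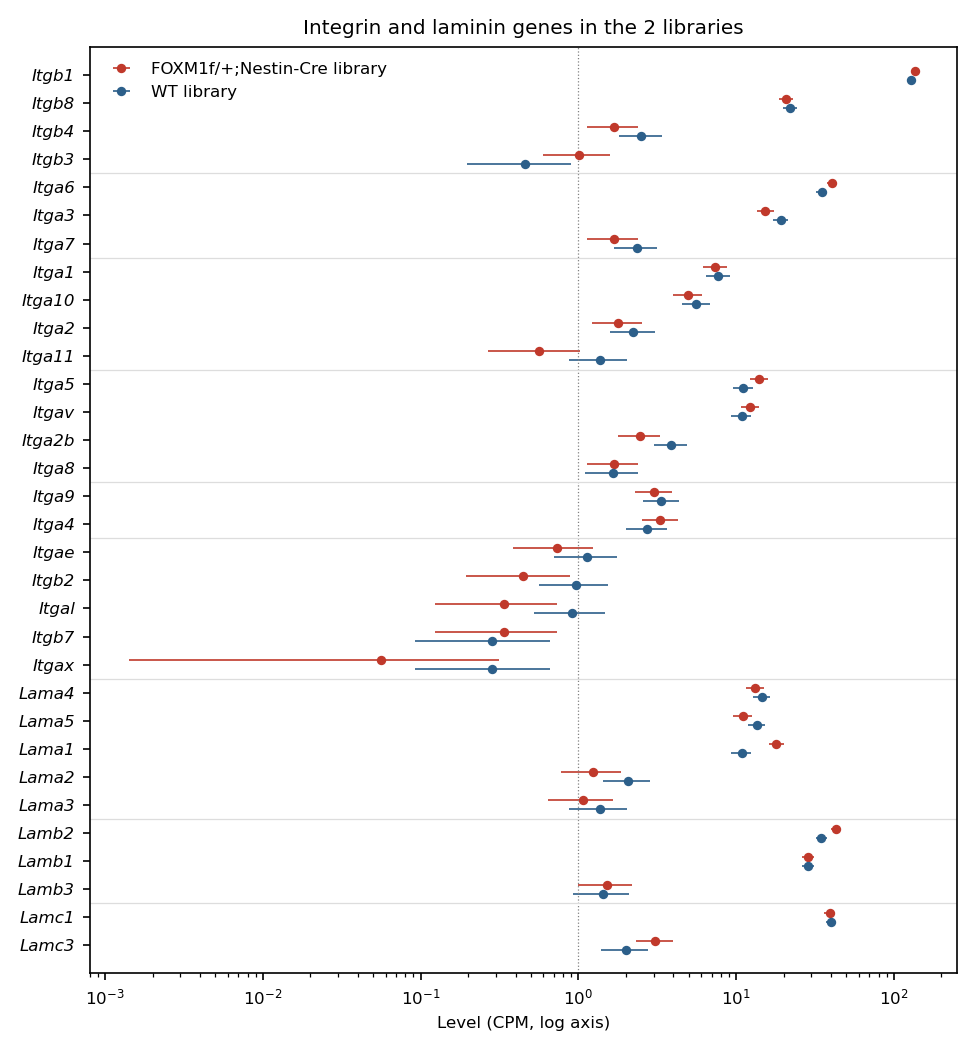
Level (CPM, log axis, with exact 95% counting intervals) of integrin and laminin genes in the FOXM1f/+;Nestin-Cre (red) and the WT (blue) library, grouped by role, with a dotted line at 1 CPM. Itgb1 stands highest, at 136 and 128 CPM. The leukocyte subunits have a mean under 1 CPM, as do Itgb3 and Itga11.

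Among the laminin α chains, Lama1 stood apart from the other 4. Lama1 (ENSMUSG00000032796, chr17:67697265-67822645, plus strand) encodes α1, the chain of laminin-111 in early basement membranes and in the pial membrane that covers the cortex. It had 321 transgenic reads (18.0 CPM) and 190 WT reads (10.8 CPM), a ratio of 1.66 (1.38 to 2.00), or 0.73 on the log2 scale. Lama4 encodes α4, a chain of vessel basement membranes. It had 236 and 256 reads (13.2 and 14.6 CPM) and a ratio of 0.906 (0.756 to 1.09). Lama5 encodes α5, the chain of laminin-511 in vessels and many epithelia. It had 196 and 237 reads (11.0 and 13.5 CPM) and was 1.23-fold lower in the transgenic library (1.01 to 1.49), an interval that spanned 1 when libraries were scaled by median ratios (ratio 0.827). Lama2, whose α2 chain is that of muscle and the neural niche, had 22 and 36 reads (1.23 and 2.05 CPM), 1.67-fold lower with an interval of 0.954 to 2.97. Lama3, of the epithelial chain α3, had 19 and 24 reads (1.06 and 1.37 CPM) and a ratio of 0.778 (0.403 to 1.48).

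The 5 α chains together hardly differed, with 794 and 743 reads, a ratio of 1.05 (0.949 to 1.16), but their order did. Lama1 held 40.4% (37.0 to 43.9) of transgenic and 25.6% (22.5 to 28.9) of WT laminin α reads. Lama4 held 29.7% and 34.5%, with intervals that overlapped, and Lama5 held 24.7% (21.7 to 27.8) and 31.9% (28.6 to 35.4). Shares of the same total depend on each other. Lama1 was thus the first α chain by reads in the transgenic library and the third in the WT library. Per Lama4 read there were 1.36 Lama1 reads in the transgenic and 0.742 in the WT library, a 1.83-fold difference (1.41 to 2.38). Per length, Lama1 stood at 1.86 and 1.12 CPM per kb, Lama4 at 1.09 and 1.21 and Lama5 at 0.964 and 1.19. That order rests on the length used: by the longest transcript Lama4 stood at 2.19 and 2.41 CPM per kb, above Lama1 at 1.89 and 1.14 in both libraries. The meninges and fibroblast markers, some of them of cells that lie on the pial membrane, were lower in sum in the transgenic library. Of the 8, 6 lay below, and only Foxc1 lay above, with 78 and 47 reads, a ratio of 1.63 (1.12 to 2.39). Endothelium markers, of cells that make Lama4 and Lama5, had a ratio of 0.936 in sum (0.897 to 0.977), with 3 of 9 below, none above and none at 0 reads. What part these cells had in the α chain balance was not tested.

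Per exon length, Lamb2 (7.03 and 5.72 CPM per kb, transgenic and WT), Lamc1 (4.73 and 4.84) and Lamb1 (2.87 and 2.90) stood above each laminin α chain, and did so too by the longest transcript, where Lamb1 stood at 4.92 and 4.97. Lamb2 (ENSMUSG00000052911, chr9:108479736-108490530, plus strand) encodes β2, the chain of mature and synaptic basement membranes. It had 764 transgenic reads (42.8 CPM) and 610 WT reads (34.8 CPM), a ratio of 1.23 (1.10 to 1.37). Lamb1 encodes β1, the common chain of embryonic laminins. Its 508 and 504 reads (28.4 and 28.7 CPM) gave a ratio of 0.990 (0.874 to 1.12), so the libraries did not differ there beyond counting error. The number of Lamb2 reads per Lamb1 read differed 1.24-fold (1.05 to 1.47) between the libraries, and Lamb2 took 58.8% of transgenic and 53.6% of WT laminin β reads. Lamb3, of the epithelial β3 chain, had 27 and 25 reads (1.51 and 1.42 CPM) and a ratio of 1.06 (0.593 to 1.91).

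Lamc1 encodes γ1, the chain shared by most laminins, and it was level. It had 699 and 703 reads (39.1 and 40.1 CPM) and a ratio of 0.977 (0.879 to 1.09). Lamc3 (chr2:31887291-31946539, plus strand) encodes γ3, a chain whose loss in people is known to disturb cortical folding. It had 55 transgenic reads (3.08 CPM) and 35 WT reads (1.99 CPM), a ratio of 1.54 (0.993 to 2.43). Its interval spanned 1 on the authors' CPM and lay above 1 when libraries were scaled by median ratios (ratio 1.57, 1.01 to 2.47). There were 12.7 transgenic and 20.1 WT Lamc1 reads per Lamc3 read, a ratio of 0.633 between the libraries (0.397 to 0.999).

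**Figure D4:**
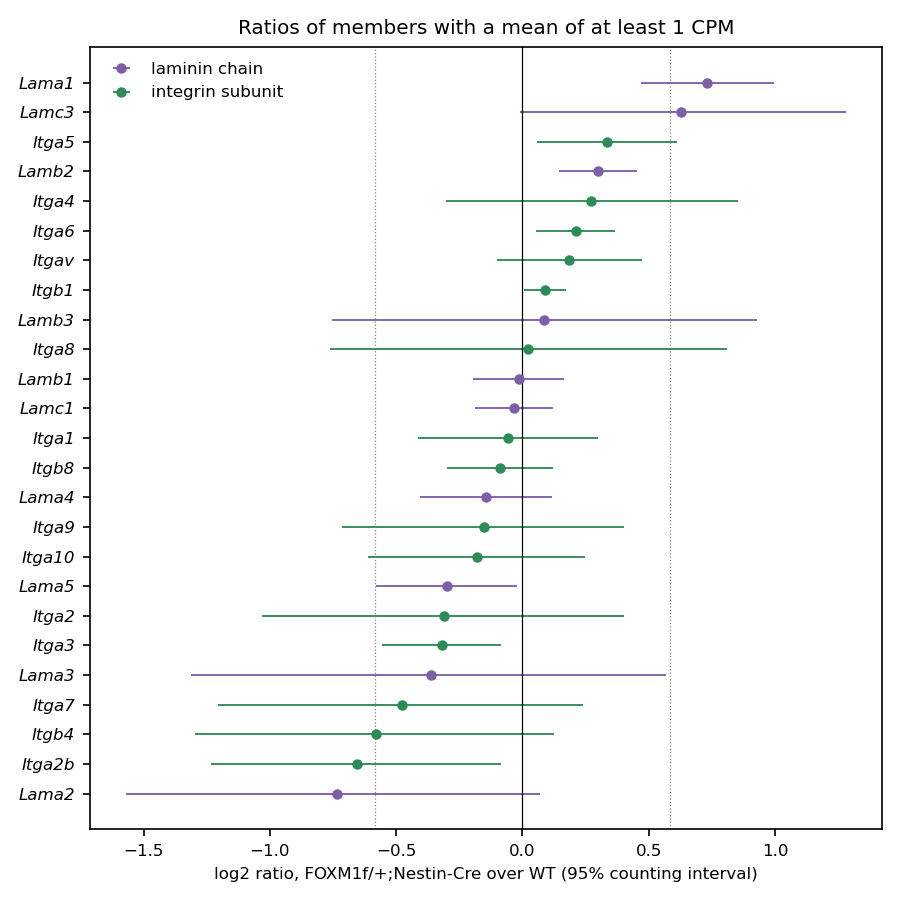
Log2 ratio of the FOXM1f/+;Nestin-Cre over the WT library for members that passed the minimum of 1 CPM, with exact 95% intervals for counting error and dotted lines at 1.5-fold. Intervals of Itgb1, Itga6, Itga5, Lama1 and Lamb2 lie above 0, and those of Itga3, Itga2b and Lama5 below.

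Lamb1 and Lamb2 show how unlike the start regions of related chains are, and their promoters are given for that contrast. Each window runs from 250 bases before to 50 bases after the start in RefSeq (GRCm38.p6), 5′ to 3′ on the gene's plus strand, with every CG dinucleotide in capitals. The Lamb1 window is chr12:31265043-31265342 and the Lamb2 window chr9:108479612-108479911.
Lamb1: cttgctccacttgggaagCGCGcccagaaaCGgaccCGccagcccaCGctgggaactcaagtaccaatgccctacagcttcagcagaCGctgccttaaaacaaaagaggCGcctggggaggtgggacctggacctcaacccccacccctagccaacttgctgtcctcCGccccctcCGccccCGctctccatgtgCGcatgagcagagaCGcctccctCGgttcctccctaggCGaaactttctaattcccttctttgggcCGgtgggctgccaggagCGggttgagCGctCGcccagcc
Lamb2: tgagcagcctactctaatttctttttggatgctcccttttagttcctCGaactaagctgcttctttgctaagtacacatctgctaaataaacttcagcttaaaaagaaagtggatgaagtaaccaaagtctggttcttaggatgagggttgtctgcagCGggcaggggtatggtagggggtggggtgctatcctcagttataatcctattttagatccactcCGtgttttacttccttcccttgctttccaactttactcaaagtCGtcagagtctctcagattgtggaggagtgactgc
The Lamb1 window holds 18 CG dinucleotides and 63.7% G and C, the Lamb2 window 4 and 44.0%.

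Windows of 20 of the 33 members, 22 windows in all, were searched on both strands for 2 motifs. These were the forkhead letters TAAACA and the cell-cycle letters TTTGAA, which FOX proteins and the cell-cycle complex of FOXM1 are known for. Among the members not searched were Lama1, Lamc3 and Itga6, so the counts below do not cover them. TAAACA occurred in 2 of the 22 windows (9.09%) and in 13.4% of all 32851 windows. One of the 2 is that of Itgav (chr2:83724147-83724446, plus strand), shown with those letters in capitals at -245 from the start.
Itgav: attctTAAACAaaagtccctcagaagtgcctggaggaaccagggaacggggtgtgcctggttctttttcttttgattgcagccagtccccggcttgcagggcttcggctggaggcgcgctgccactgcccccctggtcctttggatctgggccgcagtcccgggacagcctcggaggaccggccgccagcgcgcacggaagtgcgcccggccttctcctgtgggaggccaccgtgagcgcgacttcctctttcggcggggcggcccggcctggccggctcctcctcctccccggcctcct
The other is 1 of the 2 Lamb3 windows. TTTGAA occurred in 3 of 22 member windows (13.6%), of Itga1, Itga10 and Lamb3, and in 17.89% of all windows. Member windows held a median of 11 CG dinucleotides, beside 7 over all windows. A match is a run of letters and no measured site.

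Genes that work with integrins and laminins were described from lists in the same way, as counts with the interval above or below 1, to be read against the 16.5% of all genes above and 19.2% below. Of the 15 basement membrane partners, 3 lay above and 4 below. Sparcl1, a matrix glycoprotein, had 993 and 1306 reads, 1.34-fold lower (1.23 to 1.46). Frem2, of the embryonic basement membrane complex with Fras1, had 62 and 137 reads, 2.25-fold lower (1.65 to 3.09). Npnt, the ligand of α8β1, had 78 and 142 reads, 1.85-fold lower (1.40 to 2.47). Col4a1, the chain of basement membrane collagen, had 1805 and 1575 reads, a ratio of 1.13 (1.05 to 1.21). The list thus held both directions, with the largest differences lower in the transgenic library.

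The list of dystroglycan, its sugar-adding enzymes and its partner proteins (dystrophin, sarcoglycans and the like, and the laminin receptor Bcam) leaned lower. Of 20 genes tested, 10 lay below and 2 above, with a median log2 ratio of -0.16, where 19.2% of all genes lay below. Of these 10, Sgcb, Dtna and Bcam are neither dystroglycan nor enzymes of its sugars. None reached 1.5-fold. Dag1, dystroglycan itself, had 1702 and 1852 reads, 1.11-fold lower (1.04 to 1.18). Pomgnt1, an enzyme that extends its sugars, had 1269 and 1393 reads, 1.12-fold lower (1.03 to 1.21). B3galnt2, another enzyme of dystroglycan's sugars, went the other way, with 345 and 265 reads and a ratio of 1.28 (1.09 to 1.51).

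Inside the cell, the activators and adaptors that link integrins to actin were level: 19 of 20 tested had intervals that spanned 1. The exception was Actn4, an actin crosslinker, 1.06-fold lower with 2391 and 2490 reads. Of 18 signalling kinases and exchange factors, 6 lay below and 2 above. Rac1, the GTPase of membrane protrusion, had 3519 and 4468 reads, 1.29-fold lower (1.24 to 1.35), and Dock1, which activates it, had 390 and 296 reads, a ratio of 1.29 (1.11 to 1.51). Of 21 other integrin ligands, 8 lay below and 4 above. Tnc, a tenascin of the progenitor niche, had 1170 and 1492 reads, 1.30-fold lower (1.20 to 1.40), and Fbln2, a basement membrane fibulin, had 136 and 214 reads, 1.60-fold lower (1.29 to 2.00). Of 12 membrane partners, 3 lay below and none above, among them Cd47, with 1132 and 1233 reads, 1.11-fold lower (1.02 to 1.20). The members' own lists held both directions, with 5 above and 3 below.

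**Figure D5:**
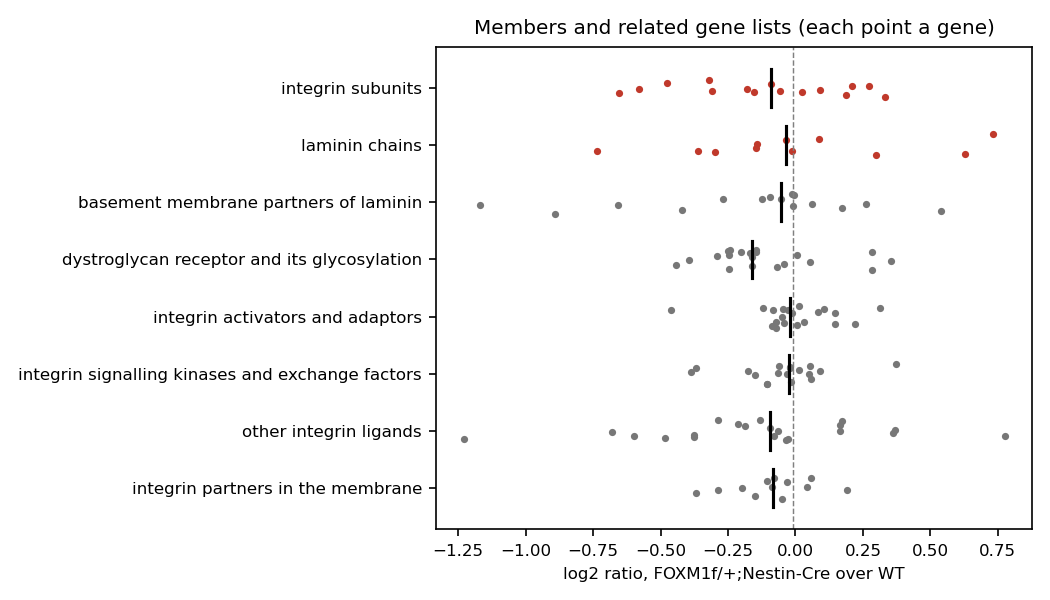
Log2 ratio of the FOXM1f/+;Nestin-Cre over the WT library for the genes of each list that passed the minimum of 1 CPM. Each point is a gene, the bar is the list's median and the dashed line the median of all genes (-0.01). Medians run from -0.16 for the dystroglycan list to -0.02 for activators and adaptors.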

How the data were processed

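RNA from E15 brains was extracted with Trizol, and 2 ug entered each library, per the labels. The authors used Bowtie2 2.2.3, TopHat2 2.0.12 and HTSeq 0.6.0 with mm9, per the submitters' processing notes. The coordinates given are those of GRCm38, however: 18699 of the 20388 genes shared with GENCODE M21 (91.7%) start and end at the same bases there. For annotation release, strand setting and multiply mapped reads, the settings were not given in the sources used here, and reads of overlapping or antisense genes may be mixed. The authors deposited raw read counts and CPM, 1 column each per genotype; a count of 0 was entered as 0.5 reads before CPM. The deposited fold change is the ratio of the CPM columns, and the deposited log2 value is its logarithm. The deposited p-values compare 1 column with 1 column and were not used; the authors' mark of a changed gene is quoted as theirs.

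Genes needed a mean of at least 1 CPM, and a gene was called higher or lower from 1.5-fold. Ratios have exact conditional (Clopper-Pearson) 95% intervals for 2 Poisson rates, computed with SciPy 1.17.1. Intervals cover counting error only, since there is 1 column per genotype. Without molecular identifiers several reads can stem from 1 molecule, so the intervals may be too narrow even for counting error. Levels were compared between genes as CPM per kb of union exon length (GENCODE M21). The edgeR test allowed for in the design needs a count column per sample and was not run; edgeR 4.0.16 in R 4.3.3 gave only the alternative scaling factors. Members are named by role. In describing each pathway list, at most 4 genes could be given with reads, those largest relative to counting error. Sgcb, Dtna and Bcam were named beyond that rule, without values. The members and lists were chosen with earlier results of these data known. Some genes matching the symbol pattern or in the lists are not reported here. Scripts were tested on simulated data.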

Additional observations from a re-analysis of the deposited data

How the results depend on the processing

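The main rule tested 26 members and 14557 genes. At least 1.5-fold higher were 2 members and 369 genes (2.53%), and lower were 2 members and 762 genes (5.23%). Without an expression minimum, 3 members were higher and 7 lower, and 1893 and 2921 genes were higher and lower. With a mean of at least 10 CPM, 1 of 12 members was higher and 0 lower, beside 34 and 86 of 10138 genes. From 2-fold, 0 of 26 members were higher and 0 lower, beside 76 and 266 of 14557 genes. By the interval on one side of 1, 5 members were higher and 3 lower, beside 2398 higher (16.5%) and 2801 lower genes (19.2%). By the authors' mark, 2 members were higher and 1 lower, beside 285 (1.96%) and 628 genes (4.31%). Leaving out genes overlapped over at least 25% of their exon bases, an alternative chosen after seeing the data, left 2 higher and 2 lower of 25 members. The calls among the 13833 genes then left are not given. With scaling by the trimmed mean or by median ratios, the log2 ratio of each of the 26 members stayed within its own interval. Lamb1, near 0, changed sign, from -0.01 to 0.002 and 0.01, and no other member did. With the longest transcript as length, 29 of 52 levels per kb moved beyond their counting interval. The reads are the same there and only the length differs, so the shift is one of length and not of counting. No paired analysis was possible because the table has 1 column per genotype with no replicate number, and for the same reason no replicate could be left out. At these depths the log2 interval of a member reached 0.39 to each side in the median (0.08 to 0.94), so smaller differences were not detectable in the lower members.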

Other observations

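Genes whose symbols begin like those of integrin subunits but that encode other proteins were also level within counting error. Itgb1bp1, an inhibitor of β1 activation, had 233 and 207 reads in the transgenic and the WT library, a ratio of 1.11 (0.913 to 1.34). Itgbl1, a secreted protein with integrin-like repeats, had 113 and 99 reads, a ratio of 1.12 (0.849 to 1.48). Itgb1bp2, a muscle protein that binds the β1 tail, had 67 reads in both, a ratio of 0.982 (0.690 to 1.40). Itga2 and Itga1 are neighbours on chromosome 13 with 1 gene between them, and their ratios were 0.806 and 0.961.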
